A study of Mus musculus with 6 samples.

Results

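The genes of the circadian clock were followed in corneal epithelium that was healing in control and in diabetic mice. They comprised 10 genes, taken by their symbols from the 14968 protein-coding genes of the expression table, and each symbol belonged to 1 gene. They were Arntl and Clock, the period genes Per1, Per2 and Per3, the cryptochrome gene Cry1, the nuclear receptor genes Nr1d1 and Nr1d2, and Dbp and Tef, whose proteins bind DNA through a basic leucine zipper. The libraries held polyadenylated RNA of C57BL/6 mice, 3 of control mice and 3 of mice made diabetic with streptozotocin (STZ), a toxin of the insulin-producing beta cells, and the labels place the diabetic samples 16 weeks after that treatment. In both groups the corneal epithelium had been scraped off, and the limbus with part of the regrowing central cornea was collected on the following day. All mice were male and young adult when they entered the study, and no genetic change was made in either group. A library combined the tissue of several mice, 1 cornea from each, so that the replicate spread is one between pools and a single mouse cannot be seen. The hour of day at which the tissue was taken is not given in the sources used here.

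In mammals the clock is a feedback loop of transcription that runs in nearly every cell. ARNTL (also called BMAL1) and CLOCK form a pair that binds E-boxes and switches on the Per and Cry genes, and the PER and CRY proteins then return to the nucleus and silence the pair. A second loop is made by NR1D1 and NR1D2 (REV-ERBs), which repress Arntl through RORE sites, while DBP and TEF carry the rhythm to output genes through D-boxes. In the mouse cornea, cell division of the epithelium and its repair are known to follow the time of day, and Per1 is also known as a gene that glucocorticoid hormones switch on directly.

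The sites through which the loop is wired are short, and they are shown here to place the members in the loop. RefSeq promoter windows on GRCm38.p6, from 250 bases before to 50 bases after a transcription start, were at hand for 9 of the 10 members, 14 windows in all, and each motif was searched on both strands. The E-box CACGTG was found in windows of Per1, Cry1 and Tef, and 7.15% of all 32851 windows held it. The weaker E-box form CACGTT was found for Cry1 and Nr1d1 (4.68% of all windows), the D-box TTANGTAA only for Per3 among these 9 (2.32%), and the RORE core TAGGTCA only for Arntl (2.61%). The cyclic AMP response element TGACGTCA was in none of the 14 windows and in 1.79% of all. No match overlapped another. In the stretches that follow, 5′ to 3′ on the strand of the gene, capitals mark the match, and AACGTG is CACGTT read on the other strand.
Per1, E-box 166 bases before the start, chr11:69098748-69098823, plus strand: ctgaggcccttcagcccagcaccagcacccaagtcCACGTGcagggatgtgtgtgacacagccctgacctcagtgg
Cry1, both E-box forms, 79 and 60 bases before the start, chr10:85185074-85185168, minus strand: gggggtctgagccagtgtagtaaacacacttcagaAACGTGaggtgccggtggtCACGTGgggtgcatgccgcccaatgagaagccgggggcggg
Nr1d1, weaker E-box form, chr11:98775378-98775440, minus strand: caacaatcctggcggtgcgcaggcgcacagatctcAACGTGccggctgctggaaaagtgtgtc
Tef, E-box before its second start, chr15:81811241-81811316, plus strand: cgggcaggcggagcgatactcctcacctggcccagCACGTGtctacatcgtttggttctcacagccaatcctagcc
Per3, D-boxes 205 and 158 bases before the start, chr4:151044781-151044905, minus strand: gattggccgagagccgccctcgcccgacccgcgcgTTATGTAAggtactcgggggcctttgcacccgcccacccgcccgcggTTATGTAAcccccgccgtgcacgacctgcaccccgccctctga
Arntl, RORE core 30 bases past its second start, chr7:113207530-113207558, plus strand: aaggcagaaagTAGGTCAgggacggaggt
The Per1 and Tef stretches each lie inside their own annotated gene but in no exon. The Per3 stretch lies inside the gene Camta1, also in no exon, and the Arntl stretch lies in an untranslated part of an Arntl exon. Tef has a further E-box before its first start.

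Expression was deposited as FPKM, the fragments mapped to a gene scaled by the length of its transcript and by the mapped fragments of the library, which allows levels to be compared between genes. FPKM summed to 308757 to 331926 per library, and the number of reads behind a value is unknown. The labelled tissue was met by its markers, as 8 of 8 corneal epithelial genes, among them Krt12 and Pax6, were at 1 FPKM or more in each library, with sums of 11616 to 11759 FPKM in control and 11153 to 13129 FPKM in diabetic libraries. The corneal epithelial sum was mostly Krt12, Krt5 and Krt14, and single genes moved in opposite directions. Krt12 was higher in each diabetic library than in any control library (log2 fold change 0.52, unadjusted p = 0.0116, adjusted p = 0.306 in limma). Krt14 was lower in each (-0.26, unadjusted p = 0.00598, adjusted p = 0.264 in limma). The other 6 did not pass an unadjusted p of 0.05 in limma. Other cells were present. The summed FPKM of 7 neutrophil genes was 344 to 662 in control and 624 to 980 in diabetic libraries. Nearly all of it was S100a8 and S100a9, so it mainly follows these 2 genes, and 3 of the 7 were at 1 FPKM or more in each library. The sum of 6 lens genes was 10.6 to 18.5 in control and 15.1 to 241 in diabetic libraries. That of 5 erythrocyte genes was 40.9 to 107 and 9.90 to 22.2, and that of 6 stromal genes 380 to 410 and 242 to 365. Of the lens genes, Cryba1, Crygs and Mip were at 0 in 1 library or more. Conjunctival genes (4 genes) summed to 1852 to 2171 FPKM in control and 1946 to 2433 FPKM in diabetic libraries. Most of this sum is Krt13 (log2 fold change 0.06), which overlapped. Krt4 (log2 fold change 0.82), Krt19 (0.36) and Muc4 (0.38) were higher in each diabetic library than in any control library, and all 3 had an unadjusted p under 0.05 in limma, with adjusted p from 0.306 to 0.344. The summed macrophage genes (6 genes, 70.9 to 84.6 against 73.1 to 99.5 FPKM) overlapped, but single genes moved in opposite directions. Lyz2 was higher (log2 fold change 0.60, unadjusted p = 0.0222, adjusted p = 0.347 in limma), with overlapping groups. C1qa was lower in each diabetic library (-0.57, unadjusted p = 0.0221, adjusted p = 0.346 in limma). The other 4 did not pass an unadjusted p of 0.05 in limma. Vessel and melanocyte genes summed to under 2 FPKM in each library.

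All 10 members passed the expression filter, a mean of at least 0.5 FPKM in 1 or both groups, and were compared on log2(FPKM + 1) with limma, adjusted over the 12149 genes tested. In the diabetic libraries Per1 was higher, Cry1 less so, and the 95% intervals of the other 8 included 0. None of the 10 passed an adjusted p of 0.05, where 0.0658% of all genes did (8 genes). At an unadjusted p under 0.05 in limma, 2 of 10 members were higher, Per1 and Cry1, against 4.61% of all genes, and 0 of 10 were lower, against 6.91%. The values of the groups did not overlap for 3 of 10 members, Per1, Per2 and Cry1, all higher, against 6.68% of all genes, and for no member that was lower, against 10.9%. The study's cut-offs, a 1.5-fold change together with p under 0.05 before adjustment, were applied to the limma values on log2(FPKM + 1). They were met by 1 member, Per1, against 2.49% of all genes. The study itself used another test (ballgown), so this count is not the study's own. The median log2 fold change of the members was -0.06, next to -0.04 over all genes, and 4 members were higher and 6 lower. Among all genes at an unadjusted p under 0.05, 560 were higher and 839 lower, and with median-of-ratios scaling this split was 771 to 750, while no member that passed this p was lower under any scaling.

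**Figure D1:**
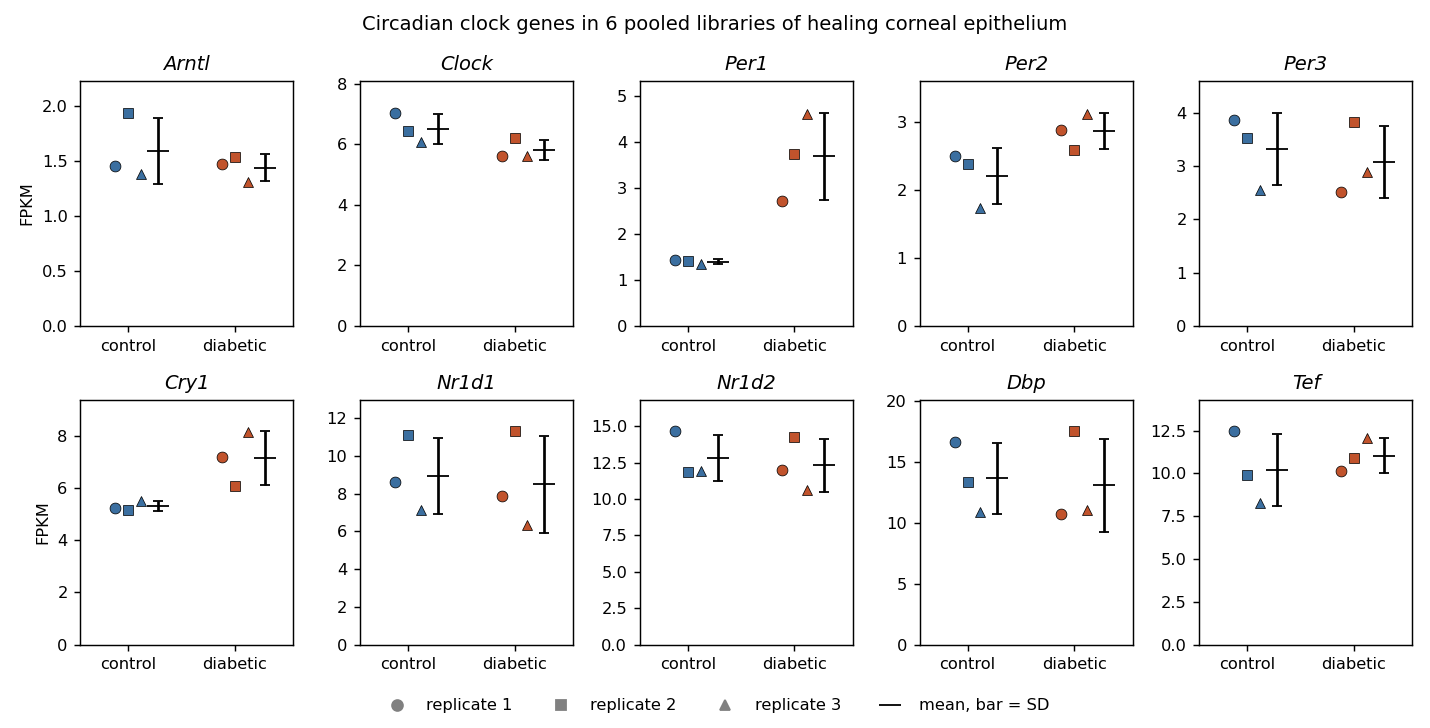
FPKM of the 10 clock genes in each library, on axes that begin at 0. Symbols mark the replicate numbers, blue stands for control and red for diabetic, and the bar gives the mean and SD of 3 libraries. Per1 lies between 1.35 and 1.43 FPKM in control and between 2.73 and 4.61 FPKM in diabetic libraries, while the values of Dbp and Nr1d1 spread widely in both groups and overlap.

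Of the repressors, Per1 stood out. Per1 (ENSMUSG00000020893.17, chromosome 11, 69095217 to 69109960, with gene positions on GRCm38 throughout) encodes a partner of the cryptochromes in the repressor complex. It was at 1.43, 1.43 and 1.35 FPKM in control replicates 1, 2 and 3, and at 2.73, 3.75 and 4.61 FPKM in diabetic replicates 1, 2 and 3. The control pools lay close together, and the lowest diabetic pool was well above the highest of them. The means were 1.40 ± 0.0465 and 3.70 ± 0.944 FPKM (SD, n = 3), a ratio of 2.64, and the log2 fold change of log2(FPKM + 1) was 0.95 (95% interval 0.59 to 1.30, SE 0.15, unadjusted p = 0.000302, adjusted p = 0.0930 in limma). Because Per1 is expressed at a low level, the added 1 FPKM lowers this value, and with 0.1 FPKM added it was 1.31. Without diabetic replicate 1, the lowest of the diabetic pools, the Per1 log2 fold change was 1.10 and the adjusted p 0.0262, and with any other library left out the adjusted p lay between 0.192 and 0.299. With library weights estimated by limma the Per1 adjusted p was 0.0213.

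The markers of other cells were set beside Per1. Diabetic replicate 3 had the highest Per1 value, and its lens sum (15.1 FPKM) and neutrophil sum (649 FPKM) lay within the range of the control libraries. Its erythrocyte sum (22.2 FPKM) and stromal sum (242 FPKM) lay below that range. Its conjunctival sum (2433 FPKM) and corneal epithelial sum (13129 FPKM) lay above it. Over diabetic replicates 1, 2 and 3 the conjunctival sums were 1946, 2256 and 2433 FPKM. The corneal epithelial sums were 11153, 12701 and 13129 FPKM, and both had the same order as the Per1 values. Krt4 was highest in diabetic replicate 3 too, but it did not have that order (192.5, 142.9 and 300.2 FPKM). Of the 8 corneal epithelial genes only Krt12 had it (3746, 5402 and 5743 FPKM). Krt14, for one, did not (4115, 3871 and 4021 FPKM). Control replicate 2, with Per1 at 1.43 FPKM, had a higher conjunctival sum (2171 FPKM) than diabetic replicate 1. The part of these cells in the Per1 difference was not tested. In bulk tissue more cells that express a gene and more RNA per cell cannot be told apart.

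Per2 and Per3, which encode the other period proteins, did not show the size of the Per1 difference. Per2 (ENSMUSG00000055866.9, chromosome 1, 91415982 to 91459324) was at 2.49, 2.38 and 1.73 FPKM in control and at 2.89, 2.59 and 3.12 FPKM in diabetic replicates. Each diabetic pool was above each control pool, although the gap between 2.49 and 2.59 FPKM was small, and the Per2 log2 fold change was 0.28 (95% interval -0.01 to 0.57, unadjusted p = 0.0592, adjusted p = 0.453). Per3 (ENSMUSG00000028957.12, chromosome 4, 151003652 to 151044665), at 3.87, 3.53 and 2.56 FPKM in control and 2.51, 3.82 and 2.89 FPKM in diabetic replicates, overlapped fully (log2 fold change -0.08, 95% interval -0.47 to 0.30). Per1 took a larger share of the period transcripts in each diabetic library than in any control library. It made up 18.4%, 19.4% and 23.9% of the summed FPKM of the 3 period genes in control replicates 1, 2 and 3, and 33.6%, 36.9% and 43.4% in the diabetic ones. The sum itself was 7.79, 7.34 and 5.64 FPKM in control and 8.12, 10.2 and 10.6 FPKM in diabetic replicates. Whether Per1 and the other period genes differed in their change was not tested.

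Cry1 (ENSMUSG00000020038.10, chromosome 10, 85131700 to 85185064) encodes a cryptochrome, the stronger repressor of the pair. It was at 5.255, 5.181 and 5.529 FPKM in control and at 7.203, 6.104 and 8.158 FPKM in diabetic replicates. Like Per1 it was tight among the control pools, and the groups did not overlap. The Cry1 log2 fold change was 0.36 (95% interval 0.09 to 0.63, unadjusted p = 0.0164, adjusted p = 0.326 in limma), a ratio of mean FPKM of 1.34, and without control replicate 2 the unadjusted p in limma was 0.0548. Of the members with an E-box in the windows shown above, Per1 and Cry1 were higher, while Tef and Nr1d1 had intervals that included 0.

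The activators showed no difference that the test resolved. Arntl (ENSMUSG00000055116.8, chromosome 7, 113207465 to 113314126) was at 1.45, 1.93 and 1.38 FPKM in control and 1.47, 1.53 and 1.30 FPKM in diabetic replicates. All values but that of control replicate 2 lay within a narrow range, and the Arntl log2 fold change was -0.08 (95% interval -0.35 to 0.19). Clock (ENSMUSG00000029238.11, chromosome 5, 76209868 to 76304792) was at 7.03, 6.42 and 6.06 FPKM in control and 5.62, 6.21 and 5.62 FPKM in diabetic replicates. It had the lowest log2 fold change of the members, -0.14, with a 95% interval of -0.37 to 0.09, and the groups overlapped through diabetic replicate 2.

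Nr1d1 and Nr1d2, the REV-ERB repressors of Arntl, were among the members with overlapping groups. Nr1d1 (ENSMUSG00000020889.11, chromosome 11, 98767932 to 98775333) was at 8.65, 11.1 and 7.12 FPKM in control and 7.86, 11.3 and 6.32 FPKM in diabetic replicates, and replicate 2 was the highest in each group. The Nr1d1 log2 fold change was -0.08, and its 95% interval, -0.59 to 0.42, was the widest of the 10. Nr1d2 (ENSMUSG00000021775.11, chromosome 14, 18204054 to 18239127) was at 14.65, 11.87 and 11.95 FPKM in control and 12.03, 14.29 and 10.65 FPKM in diabetic replicates (log2 fold change -0.06, 95% interval -0.38 to 0.26). Exons of Nr1d1 overlap those of Thra, a thyroid hormone receptor gene on the other strand, and whether strand was used in counting is not given in the sources used here. Thra itself was at 6.21 ± 0.680 and 6.42 ± 0.330 FPKM (SD, n = 3).

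The output factors Dbp and Tef were the first and the third most abundant members. Dbp (ENSMUSG00000059824.12, chromosome 7, 45705088 to 45710203), which in many mouse tissues has one of the strongest rhythms known, was at 16.63, 13.36 and 10.87 FPKM in control and 10.69, 17.47 and 11.01 FPKM in diabetic replicates. The lowest and the highest of the 6 values both came from diabetic pools, and the Dbp log2 fold change was -0.07 (95% interval -0.57 to 0.43). Tef (ENSMUSG00000022389.14, chromosome 15, 81802421 to 81826861) was at 12.4, 9.88 and 8.24 FPKM in control and 10.1, 10.9 and 12.1 FPKM in diabetic replicates, with a log2 fold change of 0.12 (95% interval -0.23 to 0.47). All diabetic Tef values lay within the range of the control pools. Exons of Dbp overlap Sphk2 on the other strand, a sphingosine kinase gene at 7.58 ± 0.786 and 6.62 ± 0.670 FPKM (SD, n = 3), and those of Arntl and Tef overlap antisense transcripts (Gm45355 and Gm17597).

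**Figure D2:**
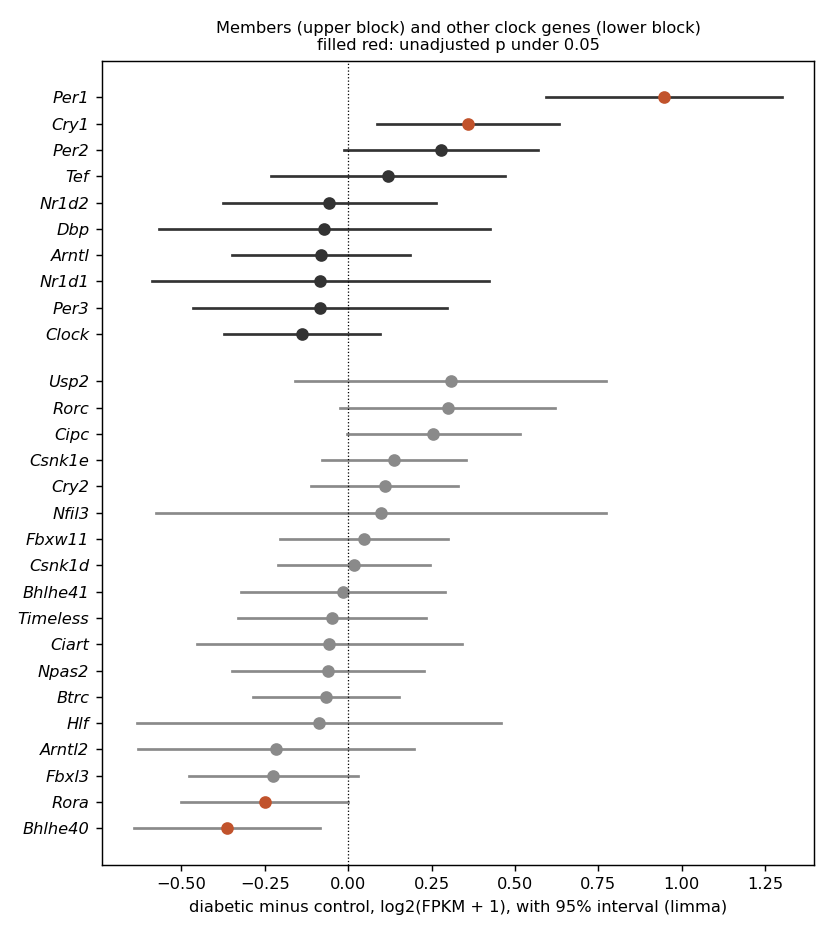
Differences between diabetic and control libraries on log2(FPKM + 1) with 95% intervals from limma, n = 3 per group, for the 10 members (upper block) and 18 other clock genes (lower block). Red points have an unadjusted p under 0.05, which holds for Per1 and Cry1 above 0 and for Rora and Bhlhe40 below it. The intervals of the other 24 genes include 0.

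The order of the levels in control libraries ran from Dbp (13.6 FPKM) over Nr1d2 (12.8), Tef (10.2), Nr1d1 (8.96), Clock (6.50), Cry1 (5.32), Per3 (3.32), Per2 (2.20) and Arntl (1.59) to Per1 (1.40), in mean FPKM. The ranges of neighbouring genes overlapped among the first 4 and among the last 3, and the other neighbours were separate. In diabetic libraries the first 4 kept their places, Cry1 (7.16 FPKM) came before Clock (5.81 FPKM), and Per1 (3.70 FPKM) moved from the last place to the seventh, with a range that overlapped Per3. Clock and Per1, and Per2 and Arntl, were the neighbours whose ranges did not overlap there.

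The members also differed from pool to pool within a group, and some of them did so together. The pooled SD within groups on log2(FPKM + 1) was 0.34 for Nr1d1 and 0.33 for Dbp, which placed them at the 91.1 and 90.7 percentile of all genes tested, whereas Clock (0.08) lay at the 12.1 percentile. Dbp was highest in control replicate 1 and diabetic replicate 2, and Clock, Per3 and Nr1d2 had their highest value of each group in the same pools. As a description over the 6 libraries, which share pools and scaling, the deviations from the group means had a Pearson r of 0.96 for Clock with Dbp, 0.95 for Per3 with Dbp and 0.88 for Nr1d2 with Dbp. Cry1 went the other way, with r of -0.90 with Nr1d1, -0.80 with Nr1d2 and -0.78 with Dbp. Of 45 pairs, 15 had an r above 0.5 and 6, all with Cry1, an r below -0.5. The share over all gene pairs was not computed, and with 6 libraries and the group means taken out such r arise for many pairs. These counts therefore do not show that the members varied together more than other genes. Per1 had no r above 0.5 or below -0.5 with another member.

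**Figure D3:**
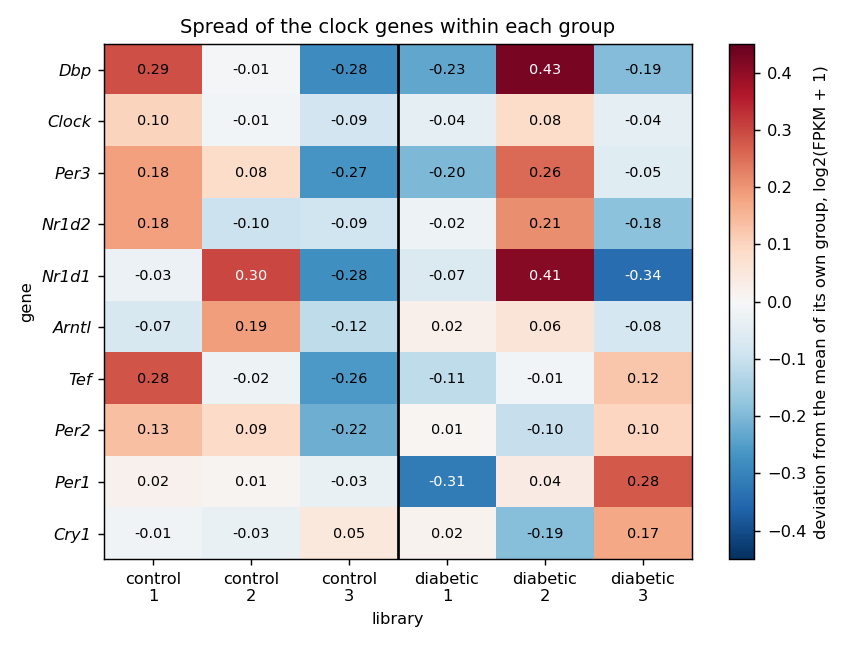
Deviation of each clock gene in each library from the mean of its own group, in log2(FPKM + 1), with red above and blue below the group mean. In diabetic replicate 2 the rows of Dbp (0.43) and Nr1d1 (0.41) are high and that of Cry1 (-0.19) is low, and in control replicate 3 Dbp (-0.28), Nr1d1 (-0.28), Per3 (-0.27) and Tef (-0.26) are low.

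Arntl and Dbp are known to peak at opposite times of day, so the distance between them was read in each library. Arntl minus Dbp on log2(FPKM + 1) was -2.85, -2.29 and -2.32 in control and -2.24, -2.87 and -2.38 in diabetic replicates 1, 2 and 3. The group means were -2.49 ± 0.31 and -2.50 ± 0.33 (SD, n = 3), and 1 pool of each group, control replicate 1 and diabetic replicate 2, lay at the low end. The difference of the groups was -0.01, far below the spread between pools. The genes outside the list whose values were most like Dbp over the 6 libraries, among 10502 genes with at least 1 FPKM in both groups, were Zmpste24 (r = 0.992), Mal2 (0.992) and Dmap1 (0.988), and 196 genes had an r above 0.9. For Arntl they were Cklf (r = 0.979), Gbf1 (0.972) and Fgd6 (0.971), with 49 genes above 0.9. With 6 libraries such values arise for many genes, and they are a description of these pools.

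Other genes of the clock were read from a list of 20, of which 18 were tested. No gene with the symbol Rorb was found in the expression data, and Fbxl21 was under the filter. None of the 18 passed the adjusted threshold in limma, and those with an unadjusted p under 0.05 were 0 higher and 2 lower genes, against 4.61% and 6.91% of all genes. The median of their log2 fold changes was -0.03 (-0.04 over all genes). Usp2, with the highest (0.31), passed the filter of 0.5 FPKM only through the diabetic group, so the filter favoured its direction. Bhlhe40, a repressor that competes for E-boxes and that low oxygen also induces, was at 28.03, 30.21 and 28.60 FPKM in control and 23.82, 24.52 and 18.93 FPKM in diabetic replicates. All 3 diabetic pools were lower, and the Bhlhe40 log2 fold change was -0.36 (95% interval -0.64 to -0.08, unadjusted p = 0.0173, adjusted p = 0.327), with an unadjusted p of 0.0590 in limma without control replicate 2. Rora, the activator that opposes the REV-ERBs at RORE sites, was at 4.90, 4.28 and 4.07 FPKM in control and 3.28, 3.90 and 3.47 FPKM in diabetic replicates. Its groups did not overlap either, but its unadjusted p (0.04999 in limma, adjusted p = 0.434, log2 fold change -0.25) lay at the threshold and passed it in 5 of 17 alternative fits. The paralogs Cry2, Npas2 and Arntl2 had log2 fold changes of 0.11, -0.06 and -0.22, and overlapped between groups, and the kinase genes Csnk1d (0.02) and Csnk1e (0.14), whose products mark PER proteins for decay, had intervals that included 0.

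Of 12 genes known as rhythmic outputs in mouse tissues, none passed the adjusted threshold in limma, 2 were higher and none was lower with p under 0.05 before adjustment (4.61% and 6.91% of all genes), and the median log2 fold change was 0.11. Wee1, a kinase gene that holds cells before mitosis and is driven by ARNTL and CLOCK through E-boxes in mouse liver, was at 9.906, 8.799 and 8.588 FPKM in control and 10.52, 11.70 and 11.97 FPKM in diabetic replicates. The groups did not overlap, by a small gap, and the Wee1 log2 fold change was 0.30 (unadjusted p = 0.0224, adjusted p = 0.348). In the fit with the replicate number as a block the unadjusted p of Wee1 was 0.0584. The water channel gene Aqp5 was at 479, 635 and 519 FPKM in control and 615, 873 and 651 FPKM in diabetic replicates, so that 1 control pool lay above the lowest diabetic pool (log2 fold change 0.38, unadjusted p = 0.0406, adjusted p = 0.413). Without any 1 of control replicates 2 and 3 and diabetic replicates 2 and 3 the unadjusted p of Wee1 was 0.05 or more, and so was that of Aqp5 without any 1 of control replicates 1 and 3 and diabetic replicates 2 and 3.

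Per1 was also read beside genes that glucocorticoids induce. Tsc22d3 (GILZ), an anti-inflammatory mediator, was at 6.975, 7.002 and 7.676 FPKM in control and 13.09, 24.20 and 24.46 FPKM in diabetic replicates (log2 fold change 1.34, adjusted p = 0.0948 in limma). Fkbp5, a co-chaperone of the receptor, was at 5.532, 6.402 and 6.774 FPKM and at 11.68, 10.24 and 16.94 FPKM (0.92, adjusted p = 0.126). Klf9, a transcription factor, was at 4.48, 4.77 and 4.88 FPKM and at 5.99, 6.19 and 5.82 FPKM (0.29, adjusted p = 0.307). For all of these, as for Per1, the groups did not overlap. They were named because of an unadjusted p under 0.05 in limma, so this is no separate result. Zbtb16 was low, at 0.103 FPKM in the control mean and 0.591 FPKM in the diabetic mean, and its log2 fold change was 0.53. It passed the filter of 0.5 FPKM only through the diabetic group, so the filter favoured this direction. Its direction is therefore no support, although Zbtb16 is in the counts that follow. Of the 7 genes of this list, 4 were higher with an unadjusted p under 0.05 in limma, against 4.61% of all genes. With this p 0 were lower, against 6.91%, and none passed the adjusted threshold. The groups did not overlap for the same 4, all higher, against 6.68% of all genes in this direction. Sgk1 (0.26), Dusp1 (0.26) and the receptor gene Nr3c1 (-0.12) overlapped between groups. These genes were listed with earlier results of the same libraries known, so their direction is not independent evidence.

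**Figure D4:**
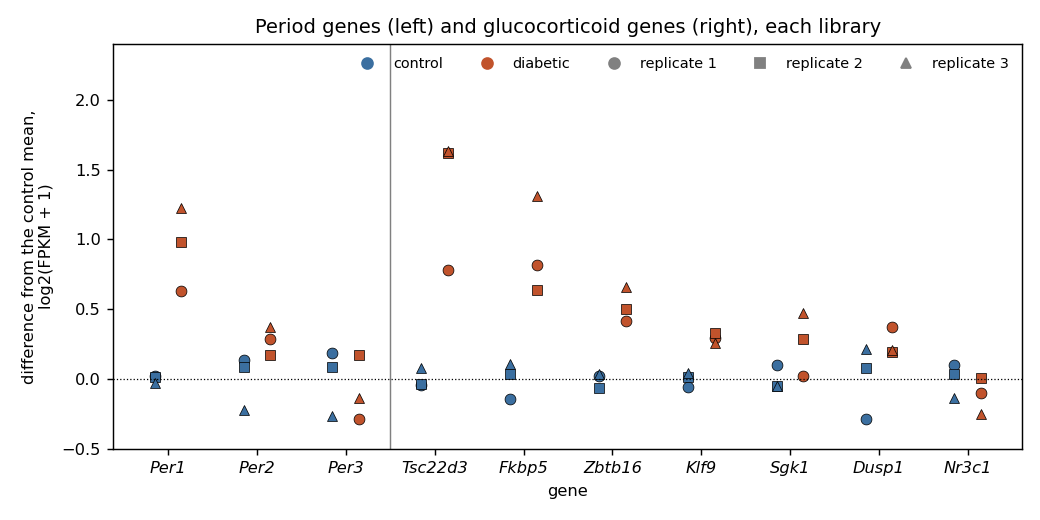
Difference of each library from the control mean on log2(FPKM + 1) for the period genes (left) and 7 glucocorticoid genes (right). Blue is control, red is diabetic, and symbols mark replicate numbers. The diabetic libraries lie 0.63, 0.98 and 1.22 above the control mean for Per1 and 0.78, 1.62 and 1.63 above it for Tsc22d3, while those of Per3 lie on both sides of 0.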

How the data were processed

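Polyadenylated RNA of 6 pooled libraries, 3 control and 3 diabetic, grouped by the sample titles, was sequenced after preparation with a stranded kit. Per the labels, the submitters' processing notes name FastQC, cutadapt, HISAT2 and StringTie on GRCm38, without versions. The deposited values are FPKM as the authors computed them, for protein-coding genes, 1 column per library, and are not counts. Single-exon genes (432) were checked for whole-read steps, and at most 25.0% of low values lay within 2% of a whole step (tolerance 0.02), so depth is unknown and no count test was used.

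Genes with a mean of at least 0.5 FPKM in 1 or both groups (12149) entered a linear model on group in limma 3.58.1 under R 4.3.3, fitted to log2(FPKM + 1) with an intensity trend, two-sided, adjusted by Benjamini-Hochberg over all genes. With 3 against 3 libraries, 0.1 is the smallest p of an exact permutation test, which was therefore left out. The fitting step was run on simulated data with 200 changed genes, as a check of the code and not of the results for the members. The pools are of separate mice, and p-values measure the spread between pools, which may be partly technical. GENCODE M21 gave overlaps and RefSeq the promoter windows. The members and gene lists were chosen with earlier results of these data known. All members are named, and of the other lists genes at an unadjusted p under 0.05. Further genes (Thra, Sphk2, Cry2, Npas2, Arntl2, Csnk1d, Csnk1e, Usp2, Noct, Sgk1, Dusp1, Nr3c1) were named after their values were seen. Alternatives were other pseudocounts, filters, scalings and variance models, a replicate block, and leaving out each library.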

Additional observations from a re-analysis of the deposited data

How the results depend on the processing

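The log2 fold changes of Per1, Cry1, Per2 and Clock kept their sign in all 17 alternative fits (Per1 0.81 to 1.31, Cry1 0.27 to 0.46, Per2 0.17 to 0.38, Clock -0.18 to -0.09). Those of Arntl, Per3, Nr1d1, Nr1d2, Dbp and Tef, none of them past a threshold, changed sign in 1 to 4 fits. Per1 passed the adjusted threshold in 2 fits, with library weights and without diabetic replicate 1, where 129 and 66 genes passed instead of 8. Per2 had an unadjusted p under 0.05 as TPM, with quantile normalization, with median-of-ratios scaling and without control replicate 1. The count of members at an unadjusted p under 0.05 was 1 to 3 when single libraries were left out, that of the other clock genes 1 to 3, that of the output and glucocorticoid genes 4 to 8, and that of all genes past the adjusted threshold 1 to 66. Genes past the adjusted threshold numbered 1 without a filter, 5 with quantile normalization, 3 without trend and 129 with library weights. The other clock genes had 1 gene at an unadjusted p under 0.05 without a filter, with the stricter filter and with robust hyperparameters. With the replicate block 3 genes passed the adjusted threshold, 2 members and 1 other clock gene had an unadjusted p under 0.05, and the Per1 adjusted p was 0.168. The replicate numbers gave no pairing, since deviations of same-numbered libraries from their group means had r of -0.198, 0.056 and -0.086, and no library correlated best with the one of its own number. Arntl minus Dbp differed between groups by -0.19 to 0.17 when single libraries were left out. Low expression of Per1 and Arntl and the unknown depth limit what can be said of small differences.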
